A study of Glycine max with 12 samples.

Results

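Loci on 3 runs of soybean chromosomes were followed in leaves of a GmNAC81-overexpressing line and of its parent cultivar. The runs comprised the loci numbered Glyma.05G156800 to Glyma.05G165700 on chromosome 5, Glyma.06G293900 to Glyma.06G304600 on chromosome 6 and Glyma.18G082200 to Glyma.18G108100 on chromosome 18. The counted annotation held 423 loci in these ranges, 84, 98 and 241 in the order of the chromosomes, and 295 of them (57, 75 and 163) had enough reads to be tested, out of 39443 tested loci in all. The other 128 loci were left out for low counts, 7 of them with no read in any library and none with more than 85 counts in any library. The borders of the runs had been drawn from the genotype differences in these same libraries. Every difference between GmNAC81-3 and BR16 given for the runs is therefore a description without a test. The change between developmental stages averaged over both genotypes was not used for the borders and was tested. It shares its estimates of spread with the genotype differences, so the test is not wholly independent of how the runs were chosen. Stage changes within a genotype share libraries with those differences and are a description.

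The third leaf was sampled from 4 groups of 3 libraries each. GmNAC81-3 V3 and BR16 V3 were leaves of vegetative plants 20 days after germination, and GmNAC81-3 R6 and BR16 R6 were leaves of plants with full seeds 80 days after germination, at the onset of senescence. GmNAC81-3 is a transgenic line that carries GmNAC81 under the constitutive 35S promoter in the BR16 background, several generations after transformation, and BR16 is the untransformed cultivar. GmNAC81-3 was the only transgenic line analysed here, so the transgene and any other difference between this line and the BR16 plants cannot be told apart. V3 and R6 libraries also came from different sequencing sets, and these cannot be told apart from the stages.

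GmNAC81 is a NAC transcription factor of a cell death pathway that responds to stress of the endoplasmic reticulum and to osmotic stress, and it promotes leaf senescence. Locus numbers in soybean run along the chromosome, so that loci with neighbouring numbers are neighbours in the genome assembly. Reads of all groups were counted against the assembly of another cultivar, Williams 82. Soybean is an ancient polyploid in which most genes have close relatives elsewhere in the genome, and reads can be shared between near-identical copies. Of the 295 loci, 3 are named in the study's supplementary lists, namely Glyma.05G157200 (MPK7, a mitogen-activated protein kinase), Glyma.05G161600 (GSTU7, a glutathione S-transferase of the tau class) and Glyma.06G296800 (SRF3, a receptor-like kinase of the STRUBBELIG family). The others are given by their identifiers alone.

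Library totals ranged from 42797825 to 77952663 counts. Levels are in CPM, the counts of a locus scaled to library size with edgeR's trimmed mean of M values (TMM), whose factors were 0.498 to 0.657 in the GmNAC81-3 V3 libraries and 0.969 to 1.38 in the BR16 V3 libraries. In GmNAC81-3 V3, the 3 most abundant loci took 44.1% to 58.5% of all counts, and 3 counts, the floor used here, corresponded to 0.0991 to 0.122 CPM, against 0.0386 to 0.0512 CPM in BR16 V3. Values at or below these levels rest on a few reads. GmNAC81 (Glyma.12G022700 with the transgene entry) ranged from 33.4 to 184 CPM in GmNAC81-3 V3 and from 3.58 to 7.26 CPM in BR16 V3, whereas at R6 the genotypes overlapped, with 46.6 to 69.1 CPM in GmNAC81-3 and 11.3 to 60.7 CPM in BR16. Plastid glutamine synthetase, a leaf enzyme encoded at Glyma.13G210800 and Glyma.15G102000, averaged 259.6 and 279.6 CPM over the 12 libraries.

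At V3, 15 of the 295 loci were called higher and 19 lower in GmNAC81-3 than in BR16, which is 11.5% of them, where 3.44% of all tested loci were called (1.75% higher and 1.69% lower). Calls required an adjusted p under 0.05 (edgeR quasi-likelihood, Benjamini-Hochberg over all tested loci) together with a log2 fold change beyond 1 in either direction. At R6, 11 were called higher and 10 lower (7.12%), where 0.0989% of all tested loci were called (0.0659% higher and 0.033% lower). The runs held 21 of the 39 loci called at R6 and 34 of the 1358 called at V3, and these shares restate how the borders were drawn. In all, 11 of the 295 loci (3.73%) were called in the same direction at both stages, where 0.0634% of all tested loci were. They were 2 on chromosome 5, 1 on chromosome 6 and 8 on chromosome 18. With 1 library left out at a time, the counts ran from 3 to 22 higher and 7 to 28 lower loci at V3, and from 5 to 11 higher and 2 to 10 lower loci at R6. At V3 they moved by over 1.5 times without BR16 V3 replicate 3 (3 higher and 7 lower), BR16 V3 replicate 2 (7 lower) or GmNAC81-3 V3 replicate 2 (8 and 8). At R6 they did so without any 1 of the BR16 R6 libraries or GmNAC81-3 R6 replicate 1 or 3 (5 to 7 higher and 2 to 4 lower), and for the lower loci also without any 1 of the BR16 V3 libraries, GmNAC81-3 V3 replicate 2 or GmNAC81-3 R6 replicate 2 (4 to 6).

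Read library by library, all 3 GmNAC81-3 values lay above or below all 3 BR16 values in the same direction at both stages for 31 loci (10.5%), 15 higher and 16 lower, where 2.42% of all tested loci behaved so (1.34% higher and 1.07% lower). The 31 loci were spread over chromosome 5 (7), chromosome 6 (5) and chromosome 18 (19). A further 66 loci did not overlap at V3 alone (22.4%, against 20.5% of all tested loci), 54 at R6 alone (18.3% against 10.2%), and 4 did not overlap at either stage but in opposite directions (1.36% against 1.06%). At 140 loci (47.5%, against 65.8% of all tested loci) the genotypes overlapped at both stages. Loci with a difference stood among loci without one on each run. Some lay in stretches, the longest being 10 consecutive tested loci at R6 at the end of the chromosome 6 run, 7 of them inside it. Differences ran in both directions, and the median log2 fold change over the 295 loci was -0.06 at V3 and 0.00 at R6, whereas its median absolute size was 0.61 and 0.36, against 0.43 and 0.24 over all tested loci. With the loci that had no count in 1 genotype (12 at V3 and 2 at R6) set to their lower bounds, the sizes were 0.57 and 0.36, against 0.42 and 0.23 over all tested loci. The 120 tested loci flanking the runs, 20 on either side of each, had median absolute sizes of 0.48 and 0.28, and 7 of them (5.83%) did not overlap in the same direction at both stages.

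**Figure D1:**
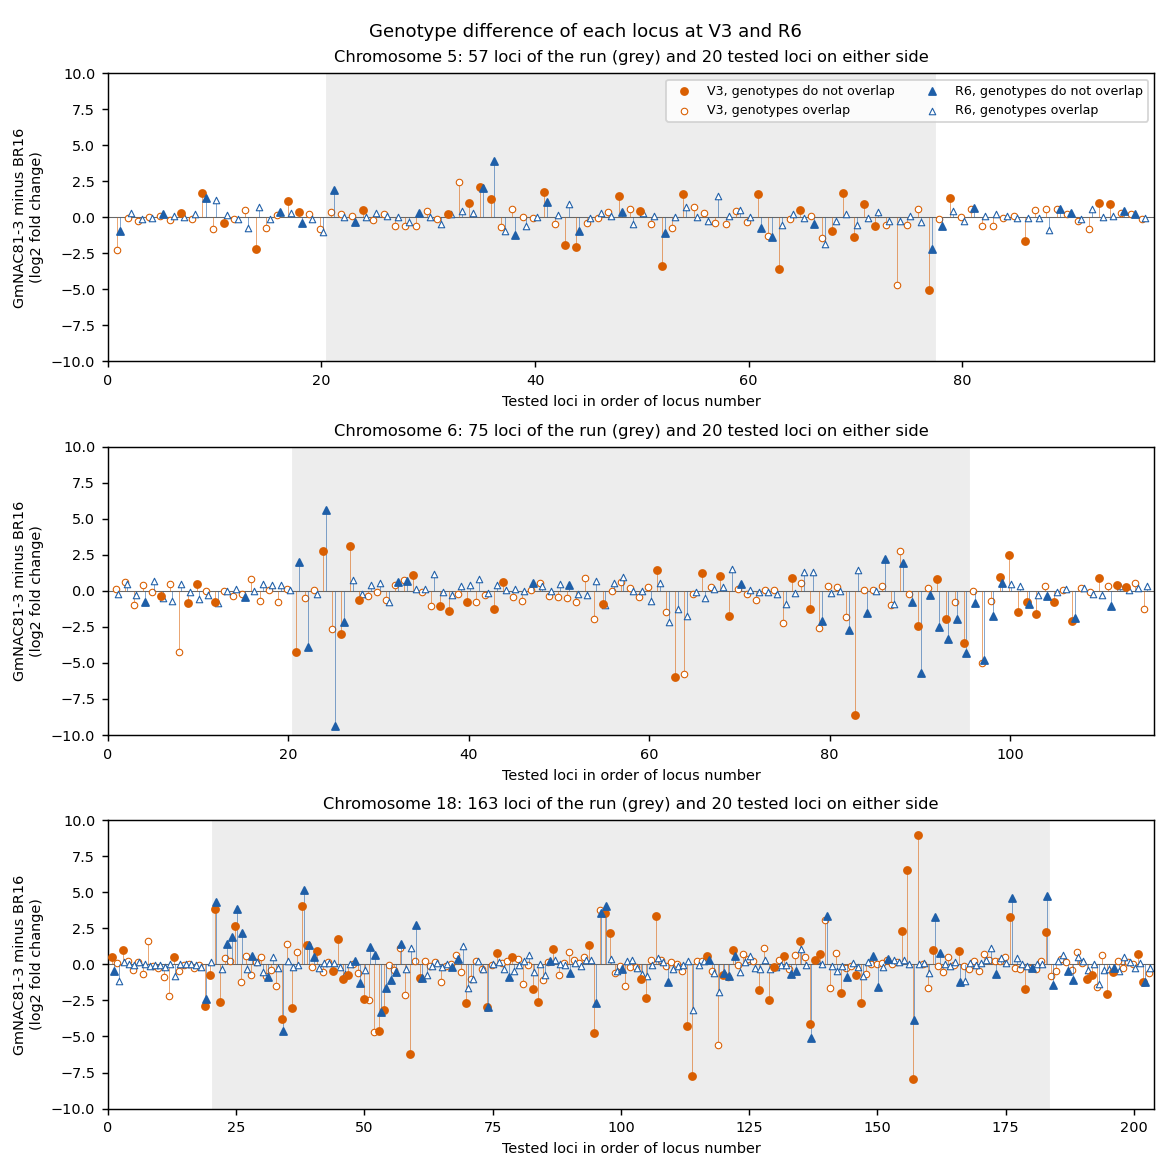
Log2 fold change of GmNAC81-3 over BR16 (y axis) at V3 (orange circles) and R6 (blue triangles) for every tested locus of the 3 runs (grey) and 20 tested loci on either side, in order of locus number (x axis). Filled symbols mark loci whose genotypes did not overlap. Values of loci with no count in 1 genotype are fitted and depend on edgeR's prior count, among them the point at -9.38 on chromosome 6 and the highest point on chromosome 18. Large differences in both directions stand between loci near 0.

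The loci of the runs were expressed at lower levels than the rest, with a median of 1.49 CPM over the 12 libraries against 2.90 CPM for all tested loci, and 120 of the 295 (40.7%) averaged under 1 CPM, against 30.5% of all tested loci. Several loci were strongly expressed all the same. Glyma.06G295700 was the most abundant at V3, with 841, 1202 and 930 CPM in GmNAC81-3 and 586, 346 and 473 CPM in BR16, all GmNAC81-3 libraries lying above those of BR16, and at R6 it had 47.5, 29.2 and 52.3 CPM in GmNAC81-3 and 37.9, 55 and 24.7 CPM in BR16, with overlap. Glyma.18G100900 and Glyma.18G099900 were strongly expressed in every group. For Glyma.18G100900 the genotypes overlapped at both stages, with 304, 220 and 173 CPM in GmNAC81-3 and 206, 81.9 and 108 CPM in BR16 at V3. Glyma.18G099900 differed at V3 alone, with 146, 232 and 159 CPM in GmNAC81-3 and 135, 91.8 and 106 CPM in BR16. On chromosome 5, the most abundant locus, Glyma.05G161000, had 72.4, 76.8 and 66 CPM in GmNAC81-3 and 63.7, 47.9 and 50.8 CPM in BR16 at V3, without overlap, and 57, 44.9 and 55.2 CPM in GmNAC81-3 and 42.9, 48.9 and 37.3 CPM in BR16 at R6, with overlap. Among these abundant loci, the log2 fold change between genotypes was highest for Glyma.06G295700 at V3, 1.08 (SE 0.35). Glyma.18G085400 differed by more at V3, with 9.58, 16 and 39.8 CPM in GmNAC81-3 and 7.89, 4.64 and 6.49 CPM in BR16 (log2 fold change of 1.78 (SE 0.48)), and overlapped at R6.

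The chromosome 5 run began at Glyma.05G156800, which was higher in GmNAC81-3 at R6, with 3.87, 2.88 and 3.98 CPM in GmNAC81-3 and 0.764, 1.01 and 1.11 CPM in BR16, whereas at V3 the values overlapped, with 0.925, 1.06 and 0.712 CPM in GmNAC81-3 and 0.649, 0.72 and 0.719 CPM in BR16. The log2 fold change was 1.90 (SE 0.24) at R6. Just outside, Glyma.05G156600 and Glyma.05G156500 overlapped between genotypes at both stages. The next locus inside, Glyma.05G156900, also overlapped at both stages, at 23.9 to 39.1 CPM in GmNAC81-3 and 21.4 to 28.2 CPM in BR16 at V3. At the far end, Glyma.05G165700 had the widest difference of the run. It had 0.066, 0.163 and 0.0712 CPM in GmNAC81-3 and 3.52, 3.64 and 2.73 CPM in BR16 at V3, and 0.397, 0.265 and 0.623 CPM in GmNAC81-3 and 1.66, 2.13 and 2.02 CPM in BR16 at R6, so that GmNAC81-3 was lower without overlap at both stages (log2 fold changes of -5.06 (SE 0.43) and -2.18 (SE 0.33)). Its inner neighbour Glyma.05G165600 overlapped at both stages. Its outer neighbour Glyma.05G165800 was lower in GmNAC81-3 at R6 alone, by a small step, with 15.6, 17.2 and 18 CPM in GmNAC81-3 and 23.9, 25.1 and 26.7 CPM in BR16.

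Between these borders, 4 loci were higher in GmNAC81-3 at both stages and 2 further loci lower. Glyma.05G158700 had 30.8, 24.8 and 14.3 CPM in GmNAC81-3 and 7.58, 4.75 and 4.15 CPM in BR16 at V3, and 10.7, 10.9 and 8.82 CPM in GmNAC81-3 and 2.2, 2.22 and 3 CPM in BR16 at R6. The lowest GmNAC81-3 library was above the highest BR16 library at both stages, and the log2 fold changes were alike, 2.09 (SE 0.31) at V3 and 2.03 (SE 0.31) at R6. Its neighbour Glyma.05G158800 was nearly silent in BR16, with 0.171, 0.18 and 0.164 CPM at V3 and 0.115, 0.0545 and 0.185 CPM at R6, against 0.594, 0.244 and 0.427 CPM at V3 and 1.84, 1.51 and 2.11 CPM at R6 in GmNAC81-3. The difference at R6, 3.90 (SE 0.43) on the log2 scale, was the highest of the run, and at V3 it was 1.30 (SE 0.44). Glyma.05G160800 was separated clearly at V3, with 1.42, 1.46 and 1.57 CPM in GmNAC81-3 and 0.393, 0.656 and 0.507 CPM in BR16, and narrowly at R6, with 22.5, 21.2 and 22.9 CPM in GmNAC81-3 and 15.1, 16.3 and 19.8 CPM in BR16. Glyma.05G159500 stayed below 1 CPM throughout, with 0.33, 0.163 and 0.142 CPM in GmNAC81-3 and 0.0341, 0.0515 and 0.0981 CPM in BR16 at V3 and 0.331, 0.297 and 0.607 CPM in GmNAC81-3 and 0.222, 0.204 and 0.162 CPM in BR16 at R6.

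GSTU7 (Glyma.05G161600), an enzyme that joins glutathione to toxic and oxidized compounds, was the named locus with a difference at both stages. It had 0.066, 0.65 and 0.569 CPM in GmNAC81-3 and 1.28, 8.92 and 2.65 CPM in BR16 at V3, and 2.95, 3.82 and 2.65 CPM in GmNAC81-3 and 7.37, 4.93 and 7.46 CPM in BR16 at R6. All GmNAC81-3 values lay below those of BR16 at both stages, and the BR16 V3 libraries were widely spread. The log2 fold change at V3 was -3.35 (SE 0.75), or -2.22 without BR16 V3 replicate 2, and at R6 it was -1.07 (SE 0.62). Glyma.05G159800 was the other lower locus, at or under 0.162 CPM in every library. MPK7 (Glyma.05G157200), a kinase of the signalling cascades that follow stress and pathogens, was slightly higher in GmNAC81-3 at V3, with 3.5, 4.23 and 3.91 CPM in GmNAC81-3 and 2.85, 2.88 and 2.6 CPM in BR16, and overlapped at R6, with 5.17, 5.92 and 4.36 CPM in GmNAC81-3 and 4.59, 5.3 and 5.58 CPM in BR16.

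At the start of the chromosome 6 run, differences of opposite sign stood side by side. Glyma.06G293900 was lower in GmNAC81-3 at V3, with 0.826, 1.18 and 0.996 CPM in GmNAC81-3 and 23.6, 12.4 and 20.2 CPM in BR16, but higher at R6, with 9.24, 12.4 and 9.41 CPM in GmNAC81-3 and 3.07, 2.73 and 2.1 CPM in BR16. The genotypes did not overlap at either stage, and the log2 fold change was -4.23 (SE 0.30) at V3 and 1.97 (SE 0.26) at R6. The next locus, Glyma.06G294000, overlapped at V3 and was lower in GmNAC81-3 at R6, where it had 0.265, 0.234 and 0.176 CPM in GmNAC81-3 and 4.01, 3.12 and 2.97 CPM in BR16 (log2 fold change of -3.89 (SE 0.46)). It was near its V3 level in GmNAC81-3 R6 and well above it in BR16 R6.

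Glyma.06G294100, the third locus, was abundant and overlapped at both stages, with 117, 160 and 107 CPM in GmNAC81-3 and 167, 128 and 153 CPM in BR16 at R6. Glyma.06G294200 was then higher in GmNAC81-3 at both stages, with 0.264, 0.163 and 0.427 CPM in GmNAC81-3 and 0.0341, 0.0515 and 0.0327 CPM in BR16 at V3, and 2.98, 4.65 and 2.86 CPM in GmNAC81-3 and 0.0533, 0.0818 and 0.0808 CPM in BR16 at R6. Its log2 fold change at R6, 5.59 (SE 0.40), was the highest of the 295 loci at that stage, and at V3 it was 2.78 (SE 0.48). Glyma.06G294300 had no read in any of the 6 GmNAC81-3 libraries. In BR16 it was at 1.81, 1.21 and 0.854 CPM at R6, which puts GmNAC81-3 at least 30.0-fold lower against a floor of 3 counts per library, and at V3 a single BR16 library had reads. Glyma.06G294500 was lower in GmNAC81-3 at both stages, with 0.396, 0.0813 and 0.142 CPM in GmNAC81-3 and 1.89, 1.83 and 1.32 CPM in BR16 at V3 and at or under 0.0533 CPM in all 6 R6 libraries. Its separation at R6 thus rests on a few reads. The log2 fold change at V3 was -2.98 (SE 0.50), or -3.87 without GmNAC81-3 V3 replicate 1. Outside this border, Glyma.06G293700 and Glyma.06G293600 overlapped between genotypes at both stages.

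In the run's interior, from Glyma.06G294600 to Glyma.06G303900, no locus was separated in the same direction at both stages. Glyma.06G303200, named after its values were seen, had no read in GmNAC81-3 V3, against 0.0683, 1.88 and 0.294 CPM in BR16 V3, and overlapped at R6. SRF3 (Glyma.06G296800), whose family in Arabidopsis acts in receptor signalling, was lower in GmNAC81-3 at V3, with 0.627, 0.163 and 0.427 CPM in GmNAC81-3 and 0.751, 1.4 and 0.785 CPM in BR16, and overlapped at R6, with 2.32, 1.36 and 3.98 CPM in GmNAC81-3 and 1.64, 2.48 and 1.68 CPM in BR16. The highest expressed interior loci, Glyma.06G295700 (above) and Glyma.06G300800, differed little between genotypes at R6. Glyma.06G300800 overlapped at both stages, with 17.1, 14.5 and 16.9 CPM in GmNAC81-3 and 14.5, 16.4 and 14 CPM in BR16 at R6.

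The end of the run lay within a stretch of 10 consecutive tested loci, Glyma.06G304000 to Glyma.06G304900, at which every GmNAC81-3 R6 library was below every BR16 R6 library. Of these, 7 were inside the border and 3 outside it. Over all tested loci, 6.86% lay below BR16 without overlap at R6 and 6.8% above. The stretch was the longest of its kind at R6 among all tested loci, where 76 stretches of 3 or more loci and 2 of 9 or more were found in either direction. Being R6 values, these had a part in drawing the border. At V3 the same 10 loci were separated in the same direction at 3 and in the opposite direction at 1, where 12.3% of all tested loci lay below BR16 without overlap at V3 and 11.7% above.

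The size of the difference varied along this stretch. Glyma.06G304100 had 0.0331, 0.0637 and 0.0639 CPM in GmNAC81-3 and 3.73, 2.47 and 2.7 CPM in BR16 at R6 (log2 fold change of -5.71 (SE 0.50)), and at V3 it was lower as well, at the limit of detection in GmNAC81-3, with 0, 0 and 0.0712 CPM in GmNAC81-3 and 0.137, 0.154 and 0.114 CPM in BR16. Glyma.06G304600, the last locus inside, had 0.166, 0.616 and 0.0958 CPM in GmNAC81-3 and 8.08, 4.65 and 5.27 CPM in BR16 at R6. At V3 it had 0, 0 and 0.142 CPM in GmNAC81-3 and 0.341, 0.823 and 0.621 CPM in BR16. GmNAC81-3 was lower without overlap at both stages, by -4.29 (SE 0.69) on the log2 scale at R6, or -5.50 without GmNAC81-3 R6 replicate 2, the highest of its 3 libraries. Glyma.06G304400 was lower at both stages at or under 0.518 CPM, with 0.0331, 0.0212 and 0.0639 CPM in GmNAC81-3 and 0.231, 0.518 and 0.45 CPM in BR16 at R6.

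Glyma.06G304500 was lower in GmNAC81-3 at R6 alone, with 0.795, 1.76 and 0.607 CPM in GmNAC81-3 and 5.47, 3.46 and 3.17 CPM in BR16. By contrast, Glyma.06G304200 differed by a small step, with 2.85, 2.65 and 3.05 CPM in GmNAC81-3 and 3.1, 3.87 and 3.36 CPM in BR16 at R6, as did Glyma.06G304000. Outside the border, Glyma.06G304700 had 4.8, 8.59 and 4.52 CPM in GmNAC81-3 and 12.7, 9.92 and 9.1 CPM in BR16 at R6, a log2 fold change of -0.82 (SE 0.29). Glyma.06G304800 had 0, 0 and 0.0319 CPM in GmNAC81-3 and 0.453, 0.218 and 0.265 CPM in BR16, and Glyma.06G304900 had 0.53, 0.849 and 0.671 CPM in GmNAC81-3 and 2.78, 2.26 and 1.72 CPM in BR16. The step in level thus did not end at the last locus of the run.

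**Figure D2:**
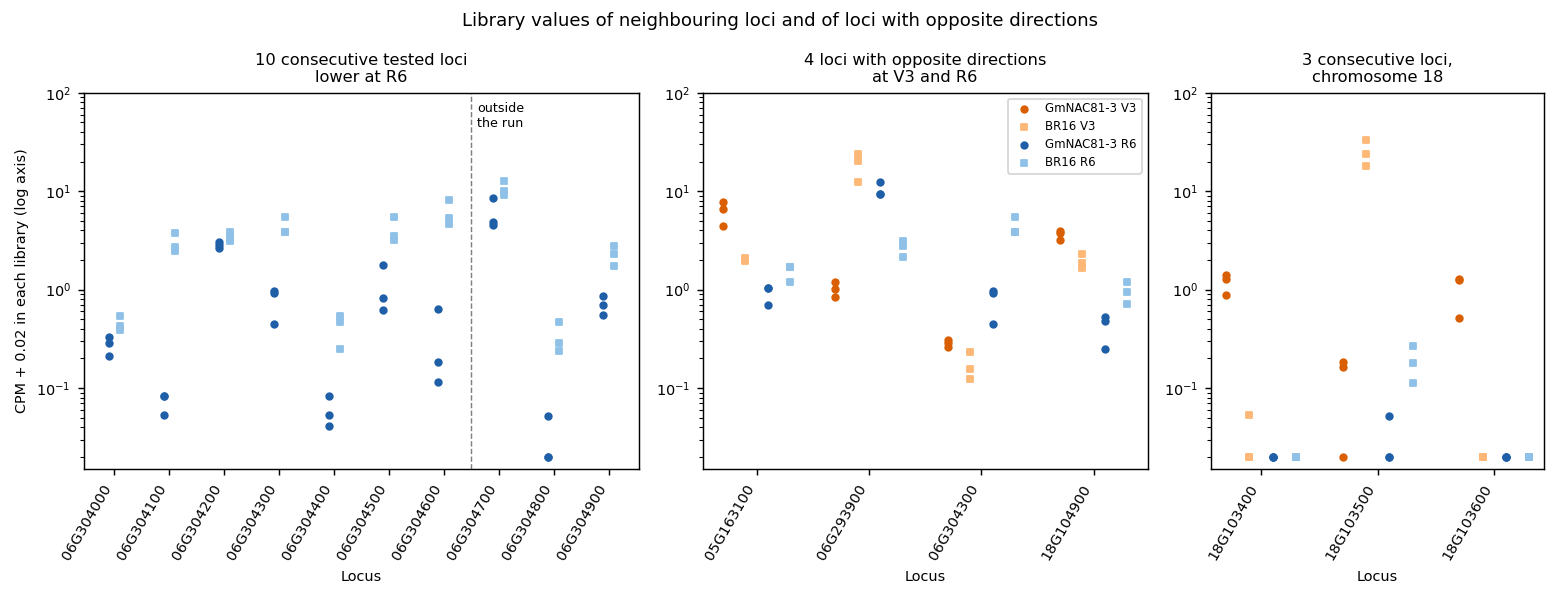
CPM + 0.02 in each library (y axis, log scale) of the 10 consecutive loci at the end of the chromosome 6 run at R6 (left), the 4 loci with opposite directions (middle) and 3 consecutive loci of chromosome 18 (right), with loci on the x axis. Circles are GmNAC81-3 and squares BR16, orange at V3 and blue at R6. At each locus on the left, the 3 circles lie below the 3 squares, also at the 3 loci outside the run.

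Glyma.18G082200, the first locus of the chromosome 18 run, was higher in GmNAC81-3 at both stages. It had 0.396, 0.488 and 0.925 CPM in GmNAC81-3 and 0, 0.0772 and 0.0327 CPM in BR16 at V3, and 9.59, 11.6 and 9.28 CPM in GmNAC81-3 and 0.293, 0.259 and 0.992 CPM in BR16 at R6. The BR16 values were close to the floor at V3, and the log2 fold change was 3.86 (SE 0.78) there, or 5.02 without BR16 V3 replicate 2, and 4.30 (SE 0.57) at R6, or 5.19 without BR16 R6 replicate 3. The second locus inside, Glyma.18G082300, was lower at V3, near the floor, and overlapped at R6. Outside the border, Glyma.18G082000 was lower in GmNAC81-3 at both stages, with 0.132, 0.163 and 0.0712 CPM in GmNAC81-3 and 0.768, 1.31 and 0.621 CPM in BR16 at V3 and 0.166, 0.361 and 0.128 CPM in GmNAC81-3 and 1.33, 1.25 and 0.923 CPM in BR16 at R6, so that a separated locus again stood just beyond the border. Glyma.18G082100 between them had at most 0.137 CPM in any library at V3 and overlapped at R6.

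Glyma.18G082800 had a difference of the same kind at a higher level, with 1.39, 1.46 and 2.85 CPM in GmNAC81-3 and 0.307, 0.36 and 0.229 CPM in BR16 at V3, and 15.7, 14.7 and 11.7 CPM in GmNAC81-3 and 0.95, 0.75 and 1.26 CPM in BR16 at R6. The GmNAC81-3 R6 libraries stood far above all others, and the log2 fold change was 2.65 (SE 0.34) at V3 and 3.83 (SE 0.32) at R6. It belonged to 4 consecutive tested loci, Glyma.18G082500 to Glyma.18G082900, that were higher in GmNAC81-3 at R6 without overlap. Glyma.18G084600 was at 4 counts or fewer in every BR16 library and had 0.726, 0.813 and 0.569 CPM in GmNAC81-3 and 0.0341, 0.0515 and 0.0327 CPM in BR16 at V3, and 1.03, 0.902 and 1.12 CPM in GmNAC81-3 and 0, 0.0545 and 0.0346 CPM in BR16 at R6. Its level in GmNAC81-3 was similar at both stages, and the log2 fold change at R6, 5.13 (SE 0.62), ranged from 4.46 without BR16 R6 replicate 1 to 5.84 without BR16 R6 replicate 2. Its neighbour Glyma.18G084700 was higher at both stages by a smaller step, 1.32 (SE 0.46) at V3 and 1.38 (SE 0.44) at R6.

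Lower loci stood among these. Glyma.18G084000 had 0, 0.0637 and 0.0319 CPM in GmNAC81-3 and 0.826, 1.17 and 0.761 CPM in BR16 at R6 (log2 fold change of -4.64 (SE 0.69), or -5.66 without GmNAC81-3 R6 replicate 2), and at V3 a single count remained over the 3 GmNAC81-3 libraries. A pair of nearby loci, Glyma.18G086600 and Glyma.18G086900, were both lower in GmNAC81-3 at both stages. Glyma.18G086600 had 0.066, 0.0813 and 0.285 CPM in GmNAC81-3 and 1.71, 4.9 and 4.02 CPM in BR16 at V3, and 1.26, 2.63 and 1.15 CPM in GmNAC81-3 and 14.6, 20 and 15.5 CPM in BR16 at R6. The highest GmNAC81-3 library lay below the lowest BR16 library at each stage, by -4.60 (SE 0.60) on the log2 scale at V3, or -5.57 without GmNAC81-3 V3 replicate 3, and -3.30 (SE 0.46) at R6. Glyma.18G086900 had 0.462, 0.163 and 0.427 CPM in GmNAC81-3 and 2.03, 4.14 and 3.3 CPM in BR16 at V3, and 4.24, 7.86 and 4.41 CPM in GmNAC81-3 and 17.1, 17.6 and 15.7 CPM in BR16 at R6, with log2 fold changes of -3.14 (SE 0.40) and -1.61 (SE 0.33).

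Glyma.18G093800 was higher in GmNAC81-3 at both stages, with 0.264, 0.244 and 0.427 CPM in GmNAC81-3 and 0, 0.0643 and 0 CPM in BR16 at V3, and 2.55, 5.3 and 1.88 CPM in GmNAC81-3 and 0.186, 0.123 and 0.265 CPM in BR16 at R6. In BR16 a single V3 library had reads of it, and the log2 fold change was 4.06 (SE 0.62) at R6. Nearby, Glyma.18G093400 went the other way, with no read in the GmNAC81-3 V3 libraries and 0.0994, 0.0849 and 0.192 CPM in GmNAC81-3 and 0.817, 0.545 and 1.02 CPM in BR16 at R6 (-2.66 (SE 0.49)). Glyma.18G099700 was steadily expressed in BR16 and nearly absent from GmNAC81-3, with 0.132, 0.0813 and 0.0712 CPM in GmNAC81-3 and 1.71, 1.7 and 1.73 CPM in BR16 at V3, and 0.0662, 0.0212 and 0 CPM in GmNAC81-3 and 1.29, 0.927 and 0.808 CPM in BR16 at R6. Its log2 fold change was -4.13 (SE 0.55) at V3 and -5.08 (SE 0.57) at R6, or -6.14 without GmNAC81-3 R6 replicate 1. Glyma.18G090500 was lower in GmNAC81-3 at both stages too, by -2.94 (SE 0.67) at V3 and -2.97 (SE 0.51) at R6 on the log2 scale. Glyma.18G096100 had no read in any of the 6 GmNAC81-3 libraries, against 0.341, 0.36 and 0.523 CPM in BR16 V3, which puts GmNAC81-3 at least 3.74-fold lower at V3. In BR16 R6 it was at 2 counts or fewer.

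A group of small steps without overlap lay among the better expressed loci. Glyma.18G096400 had 54.3, 70.6 and 63.6 CPM in GmNAC81-3 and 44, 40.3 and 39.8 CPM in BR16 at V3, and 26.1, 23.4 and 24.9 CPM in GmNAC81-3 and 20.1, 18.5 and 21.2 CPM in BR16 at R6. Glyma.18G097000 had 8.85, 13.7 and 12.2 CPM in GmNAC81-3 and 7.07, 5.4 and 5.18 CPM in BR16 at V3, and 4.39, 4.67 and 5.57 CPM in GmNAC81-3 and 3.42, 3 and 3.28 CPM in BR16 at R6. Between them, Glyma.18G096800 was lower in GmNAC81-3, with 4.39, 6.54 and 7.19 CPM in GmNAC81-3 and 10.5, 10.3 and 9.81 CPM in BR16 at V3, and 8.58, 7.11 and 8 CPM in GmNAC81-3 and 11.7, 11.7 and 11.8 CPM in BR16 at R6. All absolute log2 fold changes of these 3 loci were under 1. Glyma.18G088300 was likewise lower by about the same step at both stages, -0.95 (SE 0.26) and -0.94 (SE 0.22).

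Among loci with reads in both genotypes, the widest difference at V3 was that of Glyma.18G103500, the middle one of 3 consecutive tested loci. It was at 0, 0.163 and 0.142 CPM in GmNAC81-3 and 32.9, 18 and 23.9 CPM in BR16 at V3, a log2 fold change of -7.97 (SE 0.65), or -7.34 without GmNAC81-3 V3 replicate 1. The loci on either side had the opposite pattern. Glyma.18G103400 was at 1.25, 1.38 and 0.854 CPM in GmNAC81-3 and 0, 0 and 0.0327 CPM in BR16 at V3. It had 96 counts in the GmNAC81-3 libraries and 2 counts in those of BR16, a ratio of 114 (95% exact binomial interval of 30.8 to 956, counting error only). Counts may overstate fragments, so this interval may be too narrow. Glyma.18G103600 was at 1.25, 1.22 and 0.498 CPM in GmNAC81-3 V3 and had no read in BR16, which puts GmNAC81-3 at least 21.4-fold higher. At R6 neither of these outer loci had a read in any library, and Glyma.18G103500 was at 0, 0 and 0.0319 CPM in GmNAC81-3 and 0.16, 0.245 and 0.0923 CPM in BR16. Whether these neighbours share reads was not tested.

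Towards the end of the run, Glyma.18G104000 was higher in GmNAC81-3 at both stages, by 1.00 (SE 0.57) at V3 and 3.26 (SE 0.77) at R6. Glyma.18G107000 was higher by more, with 1.68, 3.37 and 3.49 CPM in GmNAC81-3 and 0.41, 0.257 and 0.196 CPM in BR16 at V3, and 3.53, 3.69 and 6.09 CPM in GmNAC81-3 and 0.133, 0.15 and 0.254 CPM in BR16 at R6. Its log2 fold change was 3.30 (SE 0.41) at V3 and 4.62 (SE 0.43) at R6, and the BR16 values of all 6 libraries lay at or under 0.410 CPM. The last locus, Glyma.18G108100, had 1.29, 3.29 and 3.2 CPM in GmNAC81-3 and 0.529, 0.476 and 0.638 CPM in BR16 at V3, and 1.89, 1.36 and 2.89 CPM in GmNAC81-3 and 0.0622, 0.0682 and 0.0923 CPM in BR16 at R6, with log2 fold changes of 2.24 (SE 0.40) and 4.75 (SE 0.46). The locus before it, Glyma.18G108000, overlapped at both stages at nearly equal levels. Outside, Glyma.18G108200 was lower in GmNAC81-3 at R6 alone, with 0.132, 0.276 and 0.0639 CPM in GmNAC81-3 and 0.515, 0.409 and 0.381 CPM in BR16, and Glyma.18G108300 overlapped at both stages.

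**Figure D3:**
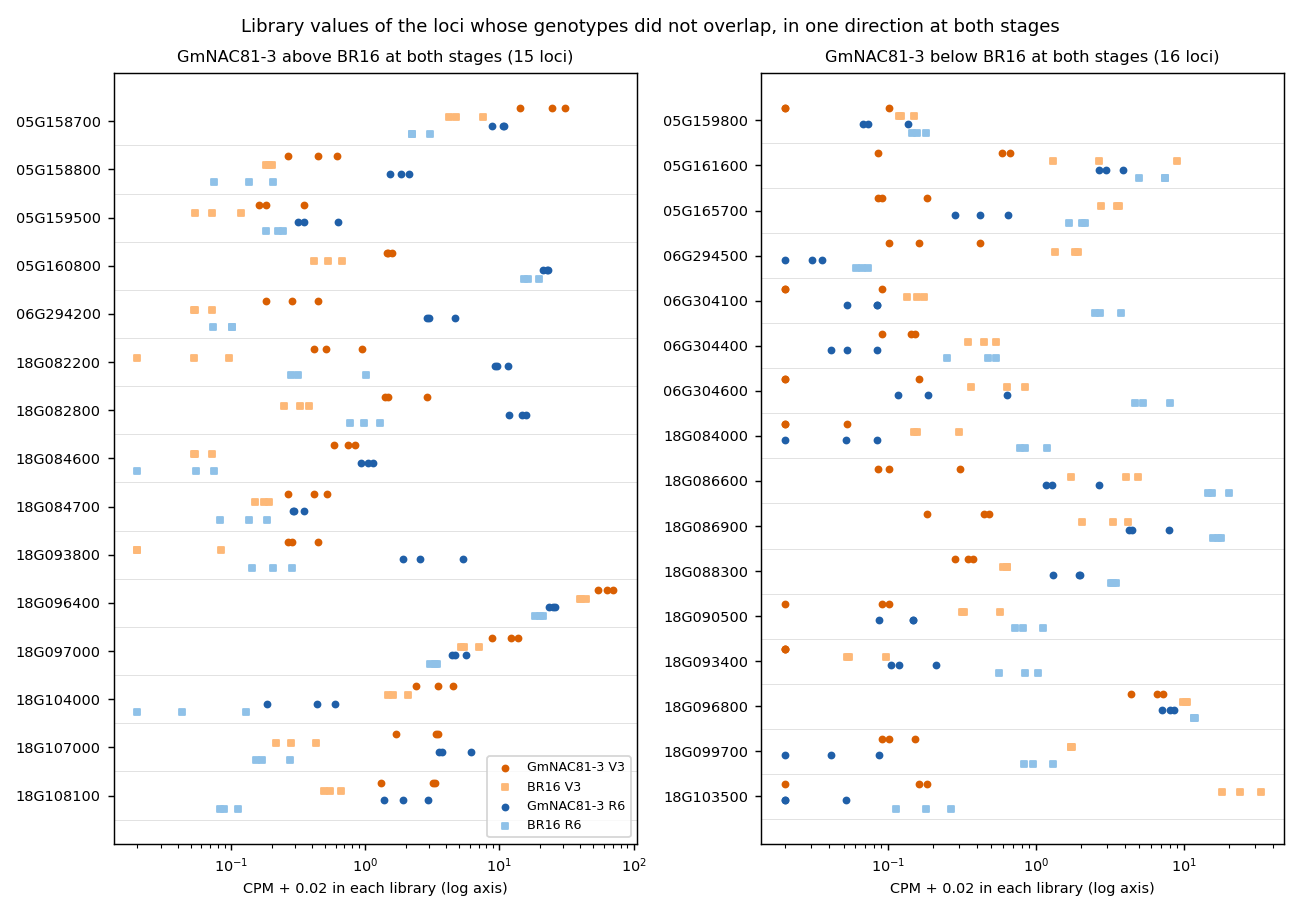
CPM + 0.02 in each library (x axis, log scale) of the 15 loci (left) and 16 loci (right) at which all GmNAC81-3 libraries (circles) lay above or below all BR16 libraries (squares) at V3 (orange) and at R6 (blue), with loci on the y axis. Within each colour, circles and squares of a locus do not overlap, and the gap ranges from narrow, as at 18G096400, to wide, as at 18G099700.

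The V3 and R6 genotype differences share no library, and across the 295 loci they had Pearson's r of 0.50 and Spearman's rho of 0.44. By run, r was 0.49 on chromosome 5, 0.34 on chromosome 6 and 0.59 on chromosome 18, against 0.47 over the 120 flanking loci and 0.22 over all tested loci. Loci are not independent replicates, these were chosen on both differences, and V3 and R6 libraries share the same line, so these values are descriptive. The sign was the same for 175 of the 295 loci (59.3%, against 54.8% of all tested loci).

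At 4 loci the genotypes did not overlap at either stage and the direction was opposite. Besides Glyma.06G293900 (above), which was lower at V3 and higher at R6, these were Glyma.05G163100, Glyma.06G304300 and Glyma.18G104900, all higher in GmNAC81-3 at V3 and lower at R6. Glyma.05G163100 had 7.73, 6.5 and 4.41 CPM in GmNAC81-3 and 2.01, 1.94 and 2.06 CPM in BR16 at V3, and 1.03, 0.679 and 1.02 CPM in GmNAC81-3 and 1.17, 1.66 and 1.68 CPM in BR16 at R6. Glyma.18G104900 had 3.2, 3.7 and 3.95 CPM in GmNAC81-3 and 2.3, 1.65 and 1.85 CPM in BR16 at V3, and 0.232, 0.456 and 0.511 CPM in GmNAC81-3 and 1.18, 0.695 and 0.923 CPM in BR16 at R6. Glyma.06G304300 lay in the stretch at the end of the chromosome 6 run, with 0.264, 0.244 and 0.285 CPM in GmNAC81-3 and 0.137, 0.103 and 0.213 CPM in BR16 at V3, and 0.431, 0.945 and 0.895 CPM in GmNAC81-3 and 5.49, 3.79 and 3.81 CPM in BR16 at R6. These last 2 loci were named after their values were seen.

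**Figure D4:**
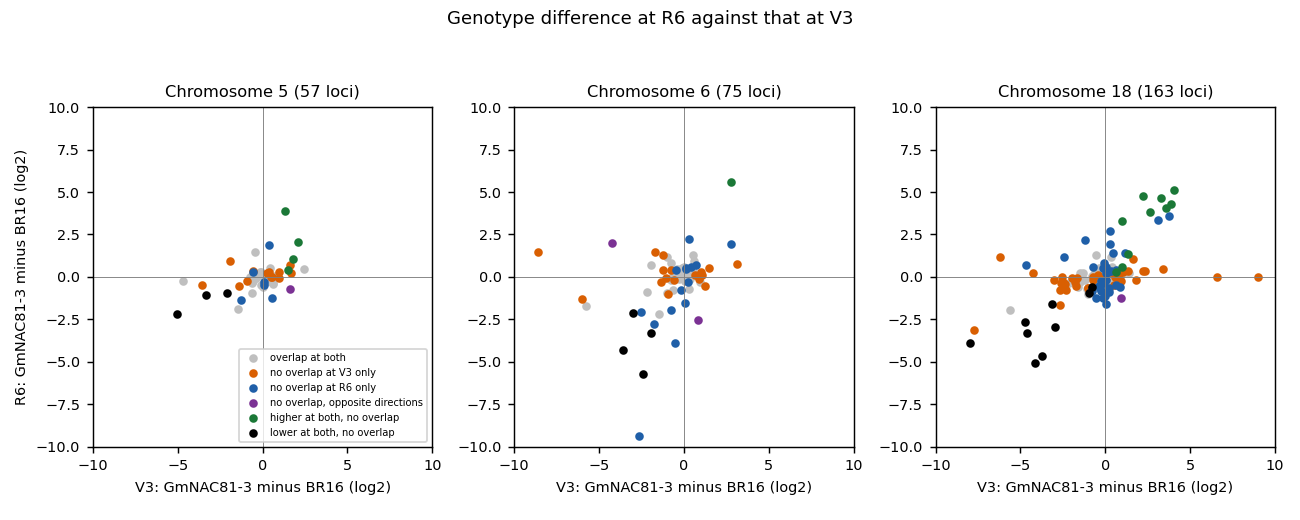
Log2 fold change of GmNAC81-3 over BR16 at R6 (y axis) against that at V3 (x axis) for the loci of each run, coloured by whether the genotypes overlapped. Loci without overlap in the same direction at both stages lie towards the upper right (15) and lower left (16), and many others lie along 1 axis, with a difference at 1 stage.

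At R6, both loci of 2 of the 56 neighbouring pairs on chromosome 5 did not overlap between genotypes, as did 11 of 74 on chromosome 6 and 21 of 162 on chromosome 18. Of these pairs, 2, 8 and 13 had the same direction, and 0, 3 and 8 had opposite directions. At V3, the counts were 7 of 56 (3 in the same direction), 6 of 74 (1) and 18 of 162 (11). Over the 3 runs these pairs made up 11.6% at R6 and 10.6% at V3, against 2.35% and 6.04% of the 39155 pairs of consecutive tested loci on all chromosomes. The direction was the same in 23 of the 34 such pairs at R6 and 15 of the 31 at V3. Over all tested loci it was the same in 583 of 921 at R6 and 1409 of 2364 at V3. Single loci without overlap made up 30.2% of the runs at R6 and 34.2% at V3. Over all tested loci, 6.8% lay above BR16 and 6.86% below at R6, and 11.7% and 12.3% at V3. More such single loci give more such pairs by themselves, and grouping of neighbours was not tested. The borders were drawn from these same values, so the shares are a description.

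The counts were deposited per transcript model and summed per locus, and 88 of the 295 loci had several models. Of the 31 loci without overlap in the same direction at both stages, 8 had several models. At 4 of them, Glyma.06G294200, Glyma.18G090500, Glyma.18G096400 and Glyma.18G099700, every model was without overlap at both stages in the direction of the locus. At the other 4 some models overlapped, namely 1 of 3 models of Glyma.05G158800, 4 of 5 of Glyma.18G084000 and 1 of 2 of Glyma.18G088300 at V3 alone, and 1 of 6 models of Glyma.18G097000 at V3 and 2 of 6 at R6. No model of the 8 loci was separated in the direction opposite to its locus. All 3 models of Glyma.18G099700 were lower in GmNAC81-3 without overlap at both stages. In BR16 V3 they took 32.8% ± 2.9, 35.1% ± 1.8 and 32.1% ± 1.2 of the locus (SD, n = 3). Both models of Glyma.06G294200 were higher at both stages, and in GmNAC81-3 R6 they took 47.0% ± 0.84 and 53.0% ± 0.84 of the locus (SD, n = 3). Both models of Glyma.18G096400 were higher at both stages as well. Its first model took 36.9% ± 1.1 of the locus in GmNAC81-3 V3 and 35.6% ± 1.7 in BR16 V3, and 40.2% ± 2.5 in GmNAC81-3 R6 and 34.8% ± 2.6 in BR16 R6 (SD, n = 3 each). Reads that fit several models of a locus cannot be assigned from the counts.

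Averaged over both genotypes, 76 of the 295 loci rose and 62 fell at R6 relative to V3 (46.8%), where 39.4% of all tested loci were called (17.8% rose and 21.6% fell, edgeR quasi-likelihood, called as above). By run, 14 rose and 11 fell on chromosome 5, 18 and 17 on chromosome 6, and 44 and 34 on chromosome 18. Whether choosing runs on genotype differences favoured loci with little spread, and so stage calls, was not tested. Loci read at a single stage passed the filter through that stage. Within GmNAC81-3, 66 rose and 54 fell, where 36.5% of all tested loci were called (16.5% rose and 20.1% fell), and within BR16, 59 rose and 55 fell, where 34.7% were called (15.1% rose and 19.6% fell). Both genotypes were called in the same direction for 79 loci (26.8%, against 25.8% of all tested loci). The counts within a genotype share libraries with the genotype differences that drew the borders, so they are a description. Across the 295 loci, the stage differences of GmNAC81-3 and BR16 had Pearson's r of 0.71, against 0.90 over the flanking loci and 0.85 over all tested loci, as a description.

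Among the 31 loci without overlap in the same direction at both stages, 15 rose and 8 fell (74.2%), against 61 and 54 of the other 264 loci (43.6%). Picking loci whose libraries separate favours those with little spread within groups, which are also called more readily for stage. The share among such loci over all tested loci was not computed, so these 2 shares are a description. Both directions of genotype difference were present among the loci that rose. Of the 16 lower loci, 9 rose and 3 fell, and of the 15 higher loci, 6 rose and 5 fell. Glyma.18G086900, lower in GmNAC81-3, rose at R6 by 3.18 (SE 0.26, adjusted p = 1.57e-06) on the log2 scale, and Glyma.18G082800, higher in GmNAC81-3, rose by 2.30 (SE 0.22, adjusted p = 5.32e-06). Glyma.05G160800 rose by 4.47 (SE 0.15, adjusted p = 5.55e-09), with 22.5, 21.2 and 22.9 CPM at R6 and 1.42, 1.46 and 1.57 CPM at V3 in GmNAC81-3, and 15.1, 16.3 and 19.8 CPM at R6 and 0.393, 0.656 and 0.507 CPM at V3 in BR16. It was thus far higher at R6 in each genotype, and the genotypes stood apart by a smaller step. Averaged over genotypes, GSTU7 rose by 1.76 (SE 0.48, adjusted p = 0.008) on the log2 scale and SRF3 by 1.80 (SE 0.34, adjusted p = 0.000764). Both rose more in GmNAC81-3 than in BR16. In BR16 the stages of GSTU7 overlapped, its highest V3 library lying above every R6 library, whereas the stages of SRF3 did not overlap in either genotype. MPK7 changed by 0.65 (SE 0.12, adjusted p = 0.000709), short of the fold limit for a call.

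Other loci changed by more with stage. On chromosome 5, Glyma.05G158200 rose most, by 6.78 (SE 0.43, adjusted p = 1.91e-07) on the log2 scale, or 8.78 without BR16 V3 replicate 2, with 7.63, 9.66 and 11.3 CPM at R6 and 0.066, 0.244 and 0.213 CPM at V3 in GmNAC81-3. Glyma.05G160900 fell most there, with a change of -4.23 (SE 0.45, adjusted p = 9.59e-06). On chromosome 6, Glyma.06G294100 rose by 3.81 (SE 0.26, adjusted p = 3.76e-07), reaching 107 CPM or more in every R6 library, and Glyma.06G295700 changed by -4.05 (SE 0.27, adjusted p = 3.32e-07), to 24.7 to 55.0 CPM at R6 over both genotypes, against 346 to 1202 CPM at V3. Glyma.06G295900 changed by -6.64 (SE 0.60), or -7.69 without BR16 R6 replicate 1. It was at 2 counts or fewer in every R6 library and passed the filter through V3 alone, so its change is a description. On chromosome 18, Glyma.18G099500 fell most, with a change of -7.20 (SE 0.39, adjusted p = 7.40e-08), at 0.828, 0.318 and 0.224 CPM at R6 and 95.7, 95.2 and 52.5 CPM at V3 in GmNAC81-3, and 0.178, 0.191 and 0.277 CPM at R6 and 36.2, 17.3 and 24.9 CPM at V3 in BR16. No library of the R6 groups came near any of the V3 groups at this locus, and at V3 the GmNAC81-3 libraries were above those of BR16.

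A few loci changed with stage in opposite directions in the genotypes or in one of them alone. Glyma.06G293900 had a stage log2 fold change of 3.37 in GmNAC81-3 and -2.83 in BR16. Glyma.06G304100 had 1.12 in GmNAC81-3 and 4.43 in BR16, and Glyma.06G294000, at 3.38 in BR16, kept nearly the same level in GmNAC81-3. Glyma.05G158800 and Glyma.06G294200 were the reverse, with 2.09 and 3.60 in GmNAC81-3, against -0.52 and 0.79 in BR16. The stage changes within a genotype share their libraries with the genotype differences above and restate them for these loci.

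**Figure D5:**
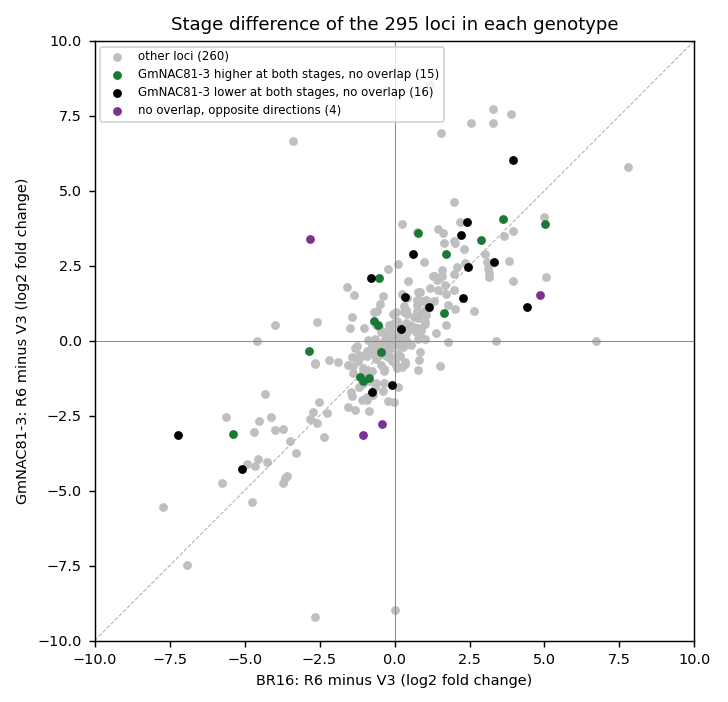
Log2 fold change of R6 over V3 in GmNAC81-3 (y axis) against that in BR16 (x axis) for the 295 loci, with the dashed line marking equal change. Most points follow the line (Pearson's r of 0.71). The 4 loci with opposite genotype directions (purple) lie away from it by the way they were picked, as the distance from the line is the change in genotype difference between stages.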

How the data were processed

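The third leaf was the source of 12 RNA libraries, 3 in each of 4 groups, which the study's methods describe as separate plants. The authors deposited raw counts per transcript model of the Wm82.a2.v1 annotation (84782 models), without normalization. Their supplementary methods name stranded TruSeq libraries, paired-end reads, trimming with Sickle, Bowtie 2 and Rsubread, whereas the submitters' processing notes name HISAT2 2.1.0 and featureCounts, so the aligner is not settled. Of the counts below 50, 74.1% to 84.9% were even in each library, so counts may overstate fragments. All columns were used.

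Counts were summed to 52660 loci, filtered with edgeR's filterByExpr over the 4 groups (39443 loci), scaled by TMM and tested with edgeR 4.0.16 (quasi-likelihood, R 4.3.3, all 12 libraries in 1 fit, Benjamini-Hochberg over all tested loci). Loci with an adjusted p under 0.05 were called if their log2 fold change was beyond 1 in either direction. The SE of a log2 fold change is its size divided by the square root of F. Alternatives were DESeq2 1.42.0, other filters, scalings and thresholds, the replicate number as a block, and leaving out each library. Without overlap means that the 3 libraries of one genotype all lie above the 3 of the other. Bounds use a floor of 3 counts per library, and bounds and intervals cover counting error only. Both take each count as a separate fragment, so they may be too tight where counts overstate fragments. P-values measure the spread between these libraries.

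Same-numbered GmNAC81-3 and BR16 libraries deviated together at V3 (correlations of 0.40, 0.22 and 0.13) and not at R6 (-0.15, -0.37 and -0.12). Between stages, same-numbered libraries had correlations from -0.30 to 0.21, and differently numbered libraries were not compared. Whether the numbers pair the V3 libraries is therefore not settled. The main fit had no block, and the replicate number was used as a block only in alternatives.

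The members, lists and rules were chosen with earlier results of these data known. Loci named in the text were, per run, the 8 with the largest smaller difference among those without overlap in the same direction at both stages, those with 3 counts or fewer in all libraries of one genotype, the 2 loci inside and outside each border, the 2 that rose and fell most with stage, the 2 whose difference changed most between stages, the 3 most abundant, and those named in the supplementary lists. Others are described as values or were named after their values were seen. No reference sequence or description was paired with these identifiers, so protein families, nodule and seed markers and sequences were not used here.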

Additional observations from a re-analysis of the deposited data

Results flagged for a closer look

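At 4 loci of the runs, every GmNAC81-3 library lay on one side of every BR16 library at V3 and on the other side at R6. The log2 fold change of GmNAC81-3 over BR16 at R6 minus that at V3 was 6.20 at Glyma.06G293900, -2.36 at Glyma.05G163100, -3.34 at Glyma.06G304300 and -2.12 at Glyma.18G104900. The loci were chosen on both of these differences, so the values are given as a description and no test of the difference is used. Over all tested loci, 1.06% had such opposite directions without overlap, against 1.36% of the loci of the runs. No group held enough libraries for a check of single outlying values.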

How the results depend on the processing

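Direction was checked at the 54 loci named by the rules above, between genotypes at each stage and for stage averaged over genotypes. None that was called reversed its direction under DESeq2, DESeq2 size factors, the replicate block or without any 1 library. Other loci in the text and stage changes within a genotype were not part of this check. With DESeq2, 27 loci were higher and 28 lower at V3, and 14 higher and 17 lower at R6. With at least 10 counts in every library, which left 160 of the 295 loci, 8 were higher and 3 lower at V3, and 4 higher and 0 lower at R6 (edgeR). The stage counts were then 24 higher and 38 lower averaged over genotypes, 22 and 30 in BR16, and 26 higher in GmNAC81-3. With only the 2 groups compared in the fit, 0 were higher and 4 lower at V3 (edgeR), and 5 higher and 2 lower at R6. At an adjusted p of at most 0.01, 7 were higher and 6 lower at V3, 6 and 3 at R6, and 39 higher with stage in BR16. The cause of these changes was not tested beyond the smaller number of loci or libraries. The share called over all tested loci was not computed under these settings, with the replicate block or with a library left out. Whether the runs or all tested loci moved therefore cannot be told.

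With the replicate number as a block, 12 loci were higher and 15 lower at V3, and 7 higher and 4 lower at R6. With the block in the V3 libraries alone, 16 were higher and 18 lower. The block moved no count of stage calls by over 1.5 times.

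Without 1 library at a time, stage counts ran from 70 to 76 higher and 57 to 64 lower averaged over genotypes, 48 to 60 and 46 to 59 in BR16, and 58 to 66 and 49 to 55 in GmNAC81-3. Genotype counts ran from 3 to 22 higher and 7 to 28 lower at V3, and from 5 to 11 and 2 to 10 at R6. The loci without overlap in the same direction at both stages numbered 33 to 41, since 2 libraries overlap less easily than 3.

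With unscaled library totals, the median log2 fold change of all loci at V3 was -1.08, against -0.04 with TMM, and 43 loci did not overlap in the same direction at both stages, 22 of them among the 31. Loci near the floor, at 0.0991 to 0.122 CPM in GmNAC81-3 V3, are limited by depth.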
